A study of Mus musculus with 9 samples.

Results

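The axon guidance families comprise semaphorins, ephrins, Slits and netrins as ligands, and plexins, neuropilins, Eph receptors and Robos as receptors. They were taken from the deposited expression table by gene symbol (the Sema3 to Sema7 genes, all plexins, Nrp1 and Nrp2, Epha and Ephb, Efna and Efnb, Slit1 to Slit3, Robo1 to Robo4, and the netrins). The rule found 63 rows among the 47729 genes of the table, and 54 of them had a mean level of at least 3 and count here as measured. The cells were cultured synovial fibroblasts, grown from collagenase-digested paws of wild-type BALB/c mice through 5 passages, and RNA was taken at day 18. Monosodium urate crystals, the crystals of gout, were injected into the paw on day 9 only (non-primed, right paw) or on day 0 and again on day 9 (primed, left paw), and naive paws received none. Each group held 3 libraries. No label gives the animal behind a culture or the age of the mice, primed and non-primed paws need not come from different mice, and paw side coincides with priming. The p-values therefore measure the spread between these libraries, which may in part be technical.

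Semaphorins steer cell movement by binding plexins, directly or, for most of the secreted Sema3 proteins, through the co-receptor neuropilin. Ephrins stay on the cell surface and signal in both directions when they touch Eph receptors on a neighbouring cell. Slits bind Robo receptors, and netrins bind receptors of the Dcc and Unc5 type. The families were named for the growing axon, and the same proteins are known to act in vessel growth, bone remodelling and immune cell movement.

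All values are rlog values, the regularised logarithm of DESeq2, on a log2 scale. The transformation draws the values of weakly expressed genes towards their mean, so their differences tend to be understated, and the depth of the libraries is unknown. The fibroblast list had all 12 markers measured, with a summed level (log2 of the sum of the unlogged values) of 18.54 to 19.67 in the 9 libraries. The cultures also held RNA of other cell types: all 14 macrophage markers were measured, with a summed level of 13.09 to 15.74 in naive, 15.81 to 16.32 in non-primed and 15.60 to 16.83 in primed libraries. Of the lymphocyte markers, Cd3e and Cd3g were listed at 0 in every library. Of the 10 endothelial markers 6 were measured, with a summed level of 8.77 to 10.31 that was highest in naive 3, while Cdh5, Cldn5, Emcn and Tie1 had means below 3. The measured ones disagreed: Tek and Erg were highest in naive 3, Egfl7 and Pecam1 in naive 2, Vwf in non-primed 2 and Kdr in primed 2. Pecam1 was near the bound, at 2.73 to 4.12. Replicates differed most in the naive group. Over the measured guidance genes the SD between naive libraries had a median of 0.47, against 0.145 for non-primed and 0.251 for primed ones (0.224, 0.103 and 0.138 over all 15623 genes tested).

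Levels of different genes were compared per length, as rlog minus log2 of the exon length in kb. On this length-adjusted scale a plexin and a neuropilin, receptors of semaphorins, were the highest of the families. Plxnb2, a plexin that binds Sema4 proteins, had a mean of 10.74, at percentile 96.05 of the genes tested. Its unadjusted rlog was 13.78, 13.48 and 13.63 in naive, 13.72, 13.77 and 13.61 in non-primed, and 13.67, 13.82 and 13.73 in primed libraries, so the groups overlapped. Nrp1, the co-receptor of Sema3a and of VEGF, followed at a length-adjusted mean of 9.64. After the ligand Sema3b at 9.13 came Plxna1 at 8.91 and Nrp2 at 8.71. In rlog, Nrp1 stood at 12.89, 12.65 and 12.95 in naive, 13.01, 12.90 and 13.01 in non-primed, and 12.86, 13.05 and 13.03 in primed libraries. Nrp2, the partner of Sema3f, stood at 12.11, 12.27 and 12.88 in naive, 12.12, 12.19 and 12.16 in non-primed, and 12.30, 12.25 and 12.23 in primed libraries. The injected libraries of each neuropilin lay close together, the groups of both overlapped with naive, and naive 3 was the highest library of Nrp2. Among the other plexins the length-adjusted mean was 7.88 for Plxna2, 7.74 for Plxnd1, the receptor of Sema3e, 5.47 for Plxnc1, 5.32 for Plxna3, 4.79 for Plxna4, 4.59 for Plxnb3 and 4.20 for Plxnb1.

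The most abundant semaphorin per length was Sema3b, a secreted ligand of neuropilins, at a length-adjusted mean of 9.13. Sema7a, which is anchored to the membrane by a lipid and binds Plxnc1 and integrins, Sema3f, Sema4c and Sema3c lay close together between 7.53 and 7.95. Sema3e, Sema4b, Sema6b and Sema3a followed between 6.02 and 6.52, and Sema3g, Sema5a, Sema6d, Sema4f and Sema3d between 4.54 and 5.97. The lowest were Sema6c at 3.94, Sema4g at 3.21, Sema4d at 3.08, Sema6a at 3.02 and Sema4a at 0.76. The family therefore covered nearly the whole range of the tested genes, from percentile 0.918 for Sema4a to 86.5 for Sema3b.

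Ephrins and Eph receptors lay nearer the middle of the range. Efna4 led the ephrins at a length-adjusted mean of 8.02, before Efnb1 at 7.75, Efna1 at 7.47, Efna5 at 5.72, Efnb2 at 5.59, Efna2 at 5.25 and Efna3 at 5.03. The rlog of Efna4 was 8.99, 8.70 and 8.25 in naive, 8.81, 8.62 and 8.65 in non-primed, and 8.68, 8.77 and 8.79 in primed libraries, with overlapping groups. Among the receptors Ephb6, which has no active kinase, led at 8.26, before Ephb3 at 7.86, Ephb4 at 7.33, Epha2 at 7.24, Epha4 at 6.69 and Ephb2 at 6.42. Epha3, Epha7 and Epha1 lay between 4.94 and 5.61, and Epha5 stood at 1.99. The receptors Epha10, Epha6, Epha8 and Ephb1 and the ephrin Efnb3 were not measured.

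The Slits divided into a pair at a high level and Slit1 at a low one. Slit3 had a length-adjusted mean of 7.64, Slit2 of 7.53 and Slit1 of 1.49. Of their receptors, Robo1 stood at 6.29 and Robo2 at 3.94, while Robo3 and Robo4 were not measured. Robo4, the Robo of endothelial cells, had rlog values of -0.41 to -0.08 in the 9 libraries. The secreted netrins Ntn4 and Ntn1 stood at 8.59 and 7.77 per length, and Ntn5 was listed at 0 in every library. The remaining unmeasured gene was the semaphorin Sema5b, at an rlog of 3.05 in naive 3 and 1.25 to 1.63 in the other 8 libraries. The genes nearest the bound of 3 were Sema4a, with a mean rlog of 3.20, and Efnb3, with 2.40.

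**Figure D1:**
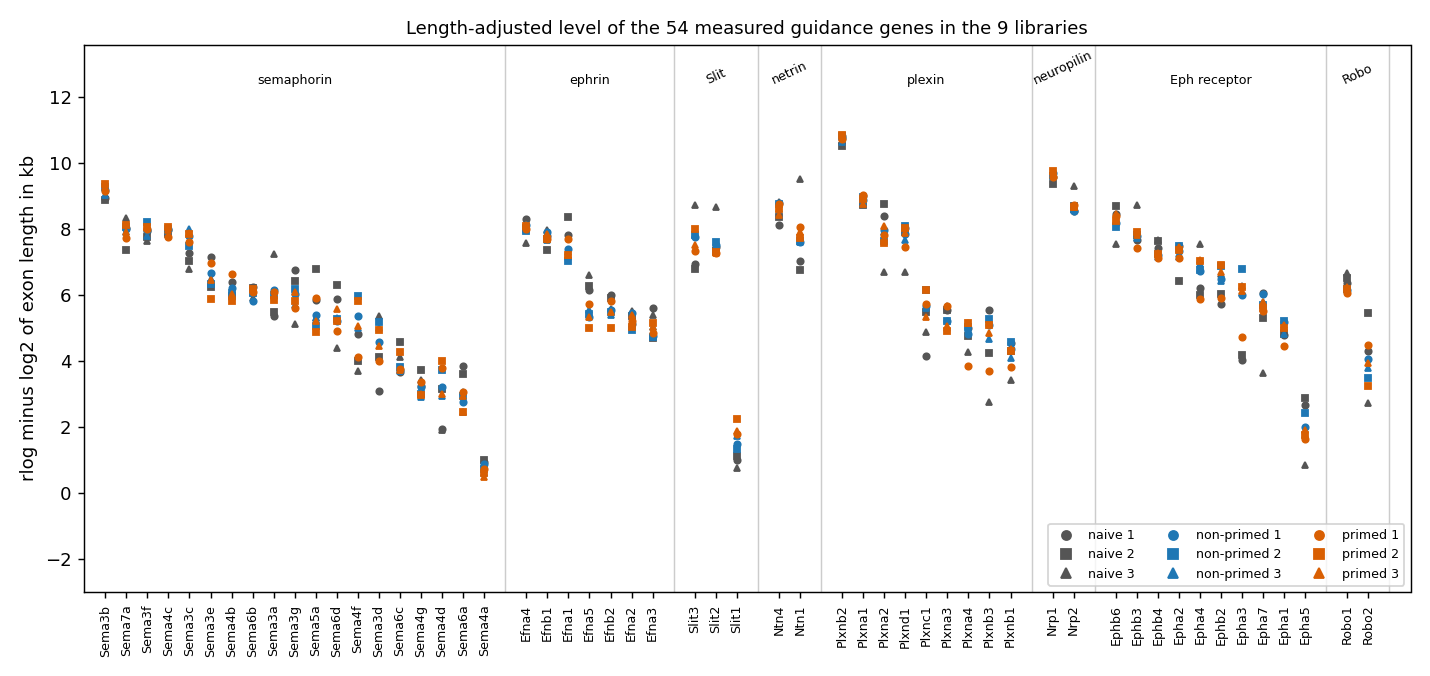
Length-adjusted level (rlog minus log2 of exon length in kb, y axis) of the 54 measured genes by family, with 1 point per library, grey for naive, blue for non-primed and orange for primed. Plxnb2 lies highest at a mean of 10.74 and Sema4a lowest at 0.76, and the spread between the 9 libraries of a gene is small beside the differences between genes, except for genes such as Ntn1, Epha3 and Plxnb3.

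Comparing cultures from injected paws with naive ones asks what crystal inflammation left in the cells. After adjustment over all genes, 0 of the 54 genes passed at an adjusted p below 0.05 (limma, two-sided) in non-primed against naive cultures, where 0.141% of all tested genes did. The count was 0 of 54 in primed against naive cultures as well, where 0.102% of tested genes passed. In the test for any difference among the 3 groups the count was again 0 (lowest adjusted p = 0.138), beside 0.0704% of tested genes. At an unadjusted p below 0.05 of limma there were 11 guidance genes in the first comparison, 20.4% beside 15.4% of all genes. Of these 7 were higher, beside 8.58% of all genes, and 4 lower, beside 6.84%. In the second there were 9, 16.7% beside 16.9%, with 5 higher, beside 9.43%, and 4 lower, beside 7.43%. The groups did not overlap for 11 guidance genes (20.4%) in non-primed against naive cultures, beside 21.9% of all genes, with 5 higher (beside 11.6%) and 6 lower (beside 10.3%). In primed against naive cultures this held for 9 (16.7%), beside 17.1%, with 4 higher (beside 8.97%) and 5 lower (beside 8.18%). These shares were near those of all genes. The median difference of the 54 genes was -0.0025 in non-primed and 0.02 in primed against naive cultures, beside 0.0088 and -0.0014 for all genes. Medians were -0.12 over 31 ligands and 0.14 over 23 receptors in the first comparison, and 0.01 and 0.07 in the second. Both comparisons use the same naive libraries and are set side by side for that reason.

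For 6 genes all 6 injected libraries lay outside the naive range, 3 above it and 3 below it. They made up 11.1% of the measured guidance genes, beside 11.5% of all genes tested (6.13% higher and 5.34% lower). The higher ones were Slit1, Sema3b and Sema3c, and the lower ones Efna5, Ephb4 and Robo1.

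Slit1, a secreted repellent ligand of Robo receptors (ENSMUSG00000025020, chromosome 19, 41600257 to 41743665, GRCm38), was the gene with the smallest p-value. It stood at 3.56, 3.70 and 3.34 in naive, 4.06, 3.91 and 4.29 in non-primed, and 4.34, 4.82 and 4.44 in primed libraries. The 3 groups did not overlap, with naive lowest and primed highest, although the level is only just above the bound of 3. The difference from naive was 0.56 (SE 0.18, limma adjusted p = 0.207) in non-primed and 1.00 (SE 0.18, adjusted p = 0.0907) in primed cultures. The second passed without naive 2, at 1.08 (adjusted p = 0.0362). Under that omission 356 genes of the whole table passed in primed against naive cultures, beside 16 with all libraries. The transformation draws the values of a weakly expressed gene together, and without counts its effect on the size of the Slit1 difference is unknown.

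Sema3b and Sema3c, secreted semaphorins that act through neuropilins, were both higher in the injected cultures. Sema3c (ENSMUSG00000028780, chromosome 5, 17574281 to 17730268) stood at 10.13, 9.89 and 9.62 in naive, 10.63, 10.34 and 10.86 in non-primed, and 10.44, 10.70 and 10.72 in primed libraries. Its difference from naive was 0.73 (SE 0.17, limma adjusted p = 0.129) in non-primed and 0.74 (SE 0.17, adjusted p = 0.121) in primed cultures. Sema3b (ENSMUSG00000057969, chromosome 9, 107597674 to 107609229) stood at 11.22, 11.15 and 11.25 in naive, 11.46, 11.54 and 11.30 in non-primed, and 11.43, 11.62 and 11.54 in primed libraries. The naive libraries of Sema3b lay close together, and the differences were small, at 0.23 (SE 0.09, adjusted p = 0.251) and 0.32 (SE 0.09, adjusted p = 0.152). Sema3f, a ligand of Nrp2, also separated primed from naive libraries, at 10.34, 10.14 and 10.02 in naive, 10.36, 10.59 and 10.18 in non-primed, and 10.39, 10.44 and 10.44 in primed libraries. None of these secreted semaphorins passed the threshold.

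Among the lower genes the largest difference was that of Efna5, a lipid-anchored ephrin that binds EphA receptors (ENSMUSG00000048915, chromosome 17, 62604184 to 62881317). It stood at 8.17, 8.29 and 8.62 in naive, 7.36, 7.44 and 7.57 in non-primed, and 7.76, 7.03 and 7.35 in primed libraries. All 6 injected libraries lay below the lowest naive one. The difference was -0.90 (SE 0.20, limma adjusted p = 0.118) in non-primed and -0.98 (SE 0.20, adjusted p = 0.09995) in primed cultures. Ephb4, the receptor of ephrin-B2 (ENSMUSG00000029710, chromosome 5, 137350109 to 137378669), stood at 9.64, 9.85 and 9.89 in naive, 9.43, 9.45 and 9.38 in non-primed, and 9.35, 9.45 and 9.49 in primed libraries. Its ligand Efnb2 stood at 8.78, 8.69 and 8.37 in naive, 8.34, 8.28 and 8.18 in non-primed, and 8.59, 7.79 and 8.26 in primed libraries, where primed 1 overlapped naive. For Ephb4 the difference was -0.37 (SE 0.09, adjusted p = 0.133) and -0.36 (SE 0.09, adjusted p = 0.141), and for Efnb2 it was -0.35 (SE 0.20) and -0.40 (SE 0.20, adjusted p = 0.345 in primed cultures). Without primed 2 the latter was -0.19. Robo1, the more abundant of the measured Slit receptors (ENSMUSG00000022883, chromosome 16, 72308306 to 73046095), stood at 10.41, 10.57 and 10.71 in naive, 10.19, 10.25 and 10.20 in non-primed, and 10.10, 10.24 and 10.31 in primed libraries. Its difference was -0.35 (SE 0.09, adjusted p = 0.164) and -0.34 (SE 0.09, adjusted p = 0.157).

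**Figure D2:**
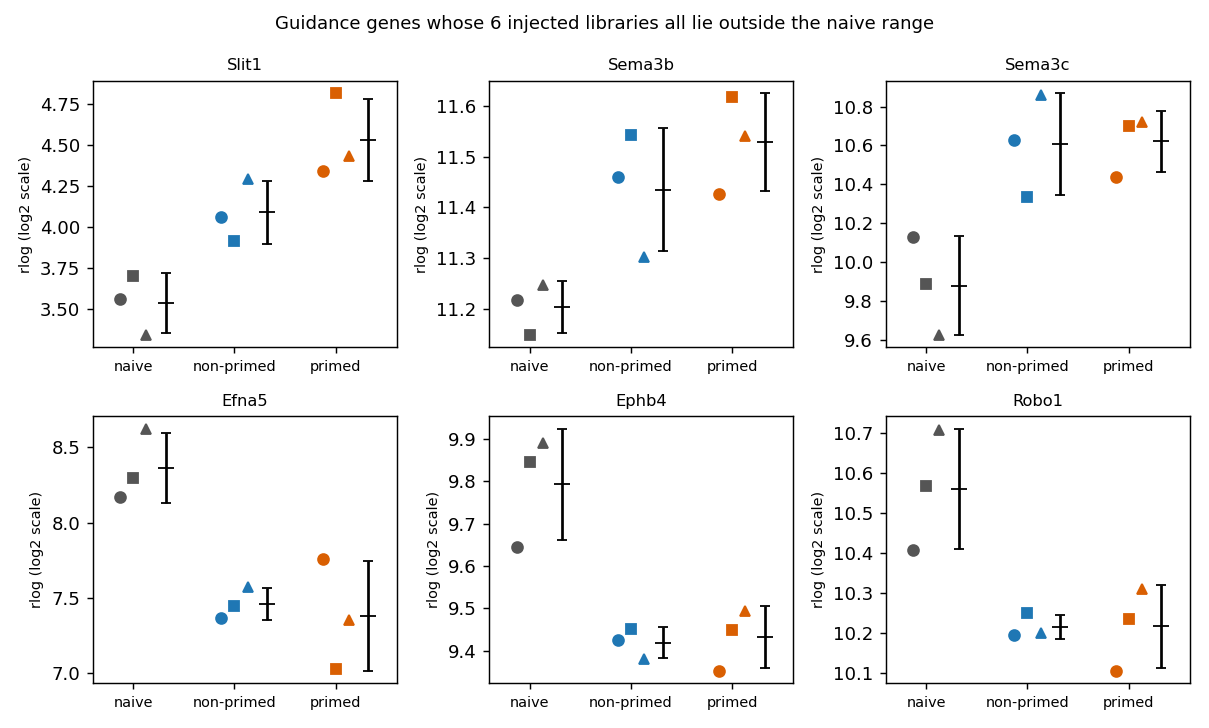
rlog (y axis, log2 scale) of the 6 genes whose injected libraries all lay outside the naive range, with 1 symbol per library (circle, square and triangle for replicates 1, 2 and 3) and the mean ± SD of 3 libraries beside each group. Slit1 runs from 3.34 to 3.70 in naive and from 4.34 to 4.82 in primed libraries, and Efna5 from 8.17 to 8.62 in naive and from 7.03 to 7.76 in the injected ones.

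The 3 lower genes made up 5.56% of the measured guidance genes, beside 5.34% of all genes tested. Their start-site windows are shown because each gene lay below the naive range, and shared regulation was not tested. Each is the 250 bases before a RefSeq transcript start (GRCm38.p6), written 5′ to 3′ on the strand of the gene. Capitals mark ACGTG and GCGTG on either strand, the core of the hypoxia response element, a motif chosen with earlier results of these data known.
Efna5, chr17:62881318-62881567, minus strand: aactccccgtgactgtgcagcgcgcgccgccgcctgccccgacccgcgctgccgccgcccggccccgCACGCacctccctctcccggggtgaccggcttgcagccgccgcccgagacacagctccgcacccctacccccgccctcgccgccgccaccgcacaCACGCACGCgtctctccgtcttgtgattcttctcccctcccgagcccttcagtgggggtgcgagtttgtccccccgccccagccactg
Ephb4, chr5:137349859-137350108, plus strand: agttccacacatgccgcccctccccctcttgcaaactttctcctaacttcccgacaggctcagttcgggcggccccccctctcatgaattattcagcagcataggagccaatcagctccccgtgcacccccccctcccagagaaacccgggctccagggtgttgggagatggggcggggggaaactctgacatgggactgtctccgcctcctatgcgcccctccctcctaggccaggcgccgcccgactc
Robo1, chr16:72662899-72663148, plus strand: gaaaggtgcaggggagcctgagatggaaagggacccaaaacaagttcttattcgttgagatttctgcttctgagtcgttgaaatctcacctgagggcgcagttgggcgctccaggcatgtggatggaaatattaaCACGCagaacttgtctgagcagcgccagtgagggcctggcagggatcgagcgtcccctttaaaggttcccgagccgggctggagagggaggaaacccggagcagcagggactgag
The Efna5 window holds 3 matches, of which a pair overlap by 1 base, the Robo1 window holds 1 and the Ephb4 window 0. The Robo1 window lies inside the annotated gene, between exons, before a later start site. The search found the letters in 38.6% of all 32851 windows of this length and in 43.7% of the 71 windows of guidance genes, and a match is a description, not a binding site. Windows of guidance genes had a median GC content of 64.0% and 15 CpG, beside 52.4% and 6 over all windows, with 74.8% and 32 for Efna5, 64.0% and 12 for Ephb4, and 56.0% and 11 for Robo1. Sema3c is not shown because its window overlaps an annotated exon, and Slit1 and Sema3b have no entry in the table used.

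Sema4d and Plxnc1, genes that immune cells are known to express, showed large differences beside the macrophage list. Sema4d, a membrane semaphorin that is shed and binds Plxnb1 (ENSMUSG00000021451, chromosome 13, 51685529 to 51793747), stood at 4.89, 6.11 and 4.84 in naive, 6.16, 6.68 and 5.90 in non-primed, and 6.73, 6.95 and 5.94 in primed libraries. Naive 2 overlapped both injected groups. Plxnc1, the receptor of Sema7a (ENSMUSG00000074785, chromosome 10, 94790866 to 94944835), stood at 7.21, 8.54 and 7.95 in naive, 8.73, 9.22 and 8.68 in non-primed, and 8.81, 9.21 and 8.40 in primed libraries. Sema4d differed from naive by 0.96 (SE 0.40) in non-primed and by 1.26 (SE 0.40, limma adjusted p = 0.196) in primed cultures, and Plxnc1 by 0.97 (SE 0.34, adjusted p = 0.227) and 0.90 (SE 0.34, adjusted p = 0.238). Without naive 2, Sema4d passed in primed cultures, at 1.68 (adjusted p = 0.0481), where 356 genes of the whole table passed. Without naive 1, the differences of Plxnc1 were smaller, at 0.63 and 0.56. The summed macrophage level was 13.43, 15.74 and 13.09 in naive, 15.81, 16.32 and 16.02 in non-primed, and 16.33, 16.83 and 15.60 in primed libraries. Naive 2, the highest naive library of both genes, was also the highest of the list, and primed 3, their lowest primed library, was also the lowest of the list among primed libraries. Its part in these differences was not tested. In such bulk RNA, fewer cells of a type and less RNA per cell cannot be told apart. Plxnb1, the receptor of Sema4d, was at 7.80, 7.56 and 6.70 in naive libraries, and the other 6 ranged from 7.07 to 7.84.

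Sema4f and Plxnb3 varied between libraries of the same group. Sema4f, a membrane semaphorin (ENSMUSG00000000627, chromosome 6, 82911885 to 82939769), stood at 7.22, 6.41 and 6.11 in naive, 7.76, 8.39 and 7.40 in non-primed, and 6.54, 8.22 and 7.47 in primed libraries. It separated non-primed from naive libraries, with a difference of 1.27 (SE 0.46, limma adjusted p = 0.240), while primed 1 lay inside the naive range. Plxnb3 stood at 8.26, 6.95 and 5.47 in naive, 7.79, 7.99 and 7.39 in non-primed, and 6.40, 7.80 and 7.57 in primed libraries. Naive 3 and primed 1 were its lowest libraries. The summed level of the Schwann and nerve list, 8 of whose 10 markers were measured, was also lowest in primed 1 at 11.72 and naive 3 at 11.78, and lay between 12.15 and 12.77 in the other 7 libraries. Sox10, the defining factor of the lineage, stood at 7.06, 5.98 and 4.71 in naive, 6.65, 6.88 and 6.26 in non-primed, and 5.59, 6.69 and 6.36 in primed libraries. The part of these cells in the levels of Sema4f and Plxnb3 was not tested.

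Epha3, a receptor of ephrin-A5 (ENSMUSG00000052504, chromosome 16, 63543534 to 63864175), had the largest difference of the measured guidance genes in non-primed cultures, 1.46 (SE 0.62, limma adjusted p = 0.309), on a wide spread. It stood at 7.16, 7.30 and 9.39 in naive, 9.13, 9.92 and 9.18 in non-primed, and 7.86, 9.38 and 9.25 in primed libraries. Naive 3 lay among the injected libraries, and primed 1 lay nearer to naive 1 and naive 2. Without naive 3 the difference was 2.18 (SE 0.45, adjusted p = 0.0564).

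**Figure D3:**
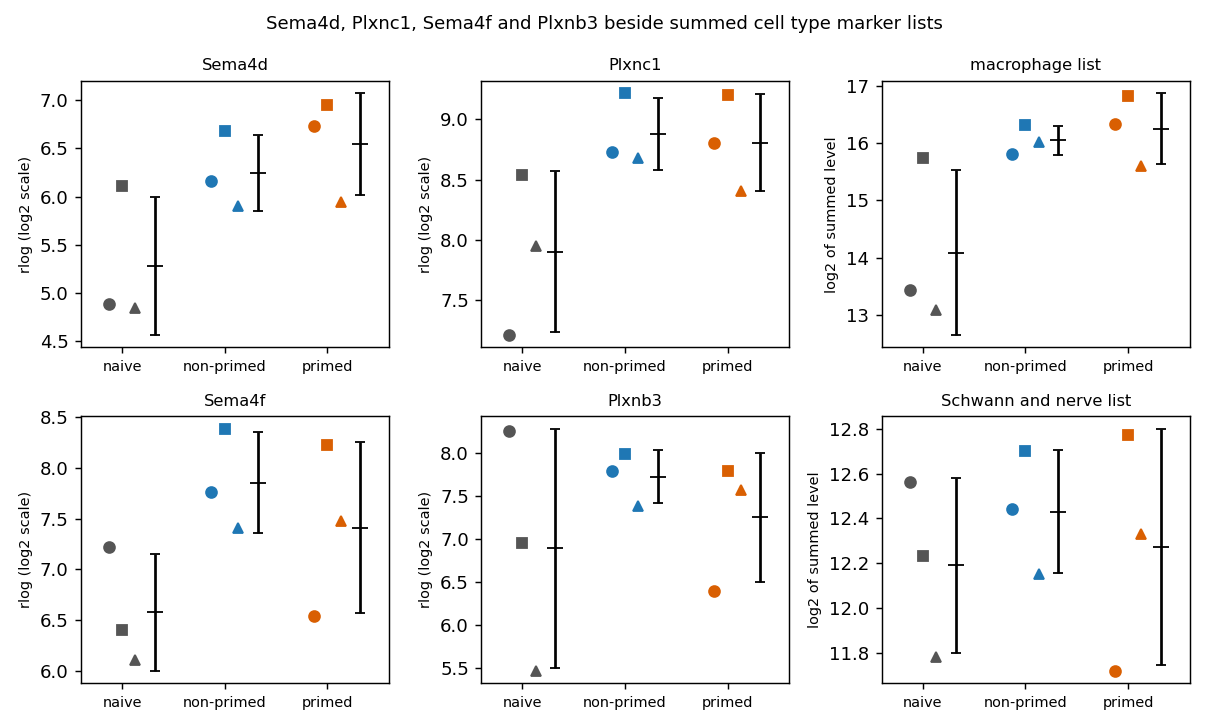
rlog of Sema4d, Plxnc1, Sema4f and Plxnb3 and the summed levels of the macrophage and the Schwann and nerve lists (y axes, log2 scale), with 1 symbol per library (circle, square and triangle for replicates 1, 2 and 3) and the mean ± SD of 3 libraries. The square of naive 2 is the highest naive point of Sema4d, Plxnc1 and the macrophage list, and the circle of primed 1 is the lowest primed point of Sema4f, Plxnb3 and the Schwann and nerve list.

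Weaker differences from naive cultures were found in a few more genes. Plxna3, a partner of neuropilins, stood at 8.54, 8.53 and 8.65 in naive, 8.20, 8.20 and 7.97 in non-primed, and 8.66, 7.90 and 8.03 in primed libraries, so that the non-primed group lay below naive (-0.45, SE 0.19, limma adjusted p = 0.306) and primed 1 was the highest of all. Sema4g stood at 6.35, 6.85 and 6.53 in naive, 6.34, 6.13 and 6.03 in non-primed, and 6.48, 6.08 and 6.12 in primed libraries (-0.41, SE 0.18, adjusted p = 0.331 in non-primed cultures). Sema4a stood at 3.37, 3.43 and 3.31 in naive, 3.33, 3.18 and 3.03 in non-primed, and 3.17, 3.04 and 2.92 in primed libraries, a difference of -0.32 (SE 0.13, adjusted p = 0.253) in primed cultures at a level next to the bound. All 3 missed the threshold.

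Naive 3 set the level of several abundant ligands. It was the highest or the lowest of the 9 libraries for 31 of the 54 genes (57.4%), beside 51.7% of all genes tested, and naive 2 for 20 (37.0%), beside 39.2%. Ntn1, a secreted netrin (ENSMUSG00000020902, chromosome 11, 68209364 to 68400823), stood at 9.69, 9.41 and 12.17 in naive, 10.27, 10.29 and 10.27 in non-primed, and 10.71, 10.39 and 10.58 in primed libraries. Sema3a, the classical repellent of axons (ENSMUSG00000028883, chromosome 5, 13125414 to 13602565), stood at 9.17, 9.29 and 11.04 in naive, 9.96, 9.80 and 9.79 in non-primed, and 9.89, 9.66 and 9.76 in primed libraries. Slit3 (ENSMUSG00000056427, chromosome 11, 35121224 to 35708507) stood at 9.54, 9.40 and 11.33 in naive, 10.36, 10.42 and 10.43 in non-primed, and 9.93, 10.60 and 10.12 in primed libraries. In each of these genes naive 1 and naive 2 lay below all injected libraries and naive 3 above all of them. The summed level of the pericyte and smooth muscle list, all 8 of whose markers were measured, had the same order, at 13.38, 12.48 and 14.97 in naive, 13.92, 14.37 and 13.83 in non-primed, and 13.44, 14.18 and 14.10 in primed libraries. Its markers disagreed, however. Acta2, Tagln, Myh11, Cnn1 and Cspg4 were highest in naive 3. Rgs5 was highest in naive 2, at 10.34 against 7.60 in naive 3, Mcam was highest in non-primed 2, and Des was lowest in naive 3. The part of the list in the levels of Ntn1, Sema3a and Slit3 was not tested. With all libraries their differences from naive were -0.15 (SE 0.60) and 0.14 (SE 0.60) for Ntn1, 0.02 (SE 0.42) and -0.06 (SE 0.42) for Sema3a, and 0.31 (SE 0.45) for Slit3 in non-primed cultures. Without naive 3 they passed: Ntn1 at 0.73 (limma adjusted p = 0.0314) in non-primed and 1.01 (adjusted p = 0.0174) in primed cultures, Sema3a at 0.62 (adjusted p = 0.0319) and 0.55 (adjusted p = 0.0486), and Slit3 at 0.93 (adjusted p = 0.0450) in non-primed cultures. These 3 genes are named because of those values, and 266 genes of the whole table passed in non-primed and 196 in primed cultures under the same omission.

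The other genes with naive 3 at an extreme moved in both directions. Slit2 (ENSMUSG00000031558, chromosome 5, 47983138 to 48307733), the most abundant Slit by rlog, stood at 12.12, 12.00 and 13.33 in naive, 12.18, 12.28 and 11.97 in non-primed, and 11.95, 11.97 and 11.96 in primed libraries. Its primed libraries lay just below all others. Ephb3 was at 11.46 in naive 3 and 10.16 to 10.64 elsewhere, and Epha7 at 6.96 in naive 3 and 8.60 to 9.38 elsewhere. Plxna2 was at 10.80 in naive 3 and 11.69 to 12.86 elsewhere. Robo2 stood at 8.38, 9.54 and 6.81 in naive, 8.14, 7.57 and 7.87 in non-primed, and 8.57, 7.34 and 8.04 in primed libraries, so both its highest and its lowest value were naive. Ntn4, a netrin of basement membranes, stood at 10.05, 10.28 and 10.72 in naive, 10.70, 10.66 and 10.52 in non-primed, and 10.68, 10.52 and 10.34 in primed libraries, with overlapping groups. Leaving out naive 3 changed the sign of the difference for 7 of the 54 genes (beside 17.8% of all genes) in non-primed and for 13 (24.1%, beside 17.9%) in primed cultures.

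**Figure D4:**
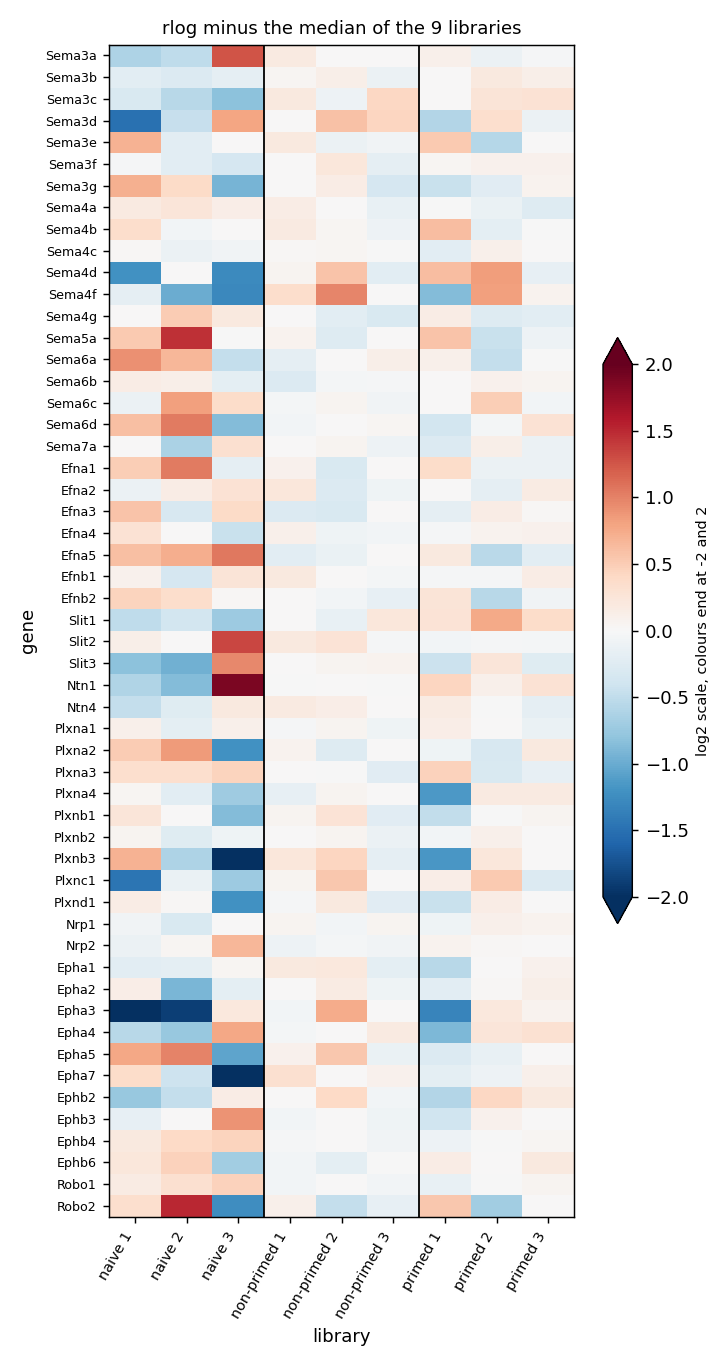
rlog of the 54 measured genes (rows) in the 9 libraries (columns) as the difference from the gene's median, on a log2 scale with colours that end at -2 and 2. Naive 3 shows strong colours, red for Ntn1, Slit2, Sema3a and Slit3 and blue for Plxnb3, Epha7 and Plxna2.

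The contrast of primed and non-primed cultures addresses what a first crystal injection changed in cells of a paw injected again later. Of the 54 genes 0 passed (limma, two-sided, lowest adjusted p = 0.9999), and 0.0% of all tested genes passed. At an unadjusted p below 0.05 there was 1 guidance gene, Slit1, beside 1.26% of all genes (0.57% higher and 0.691% lower). Its difference was 0.44 (SE 0.18, 95% interval 0.04 to 0.85, unadjusted p = 0.0353 of limma), and the 3 primed libraries lay above the 3 non-primed ones. With the replicate number as a block, 0 guidance genes had an unadjusted p below 0.05 in this comparison, so this call was lost. Other fits raised the count, to 3 with the 2 groups fitted alone (limma, lowest adjusted p = 0.905) and to 10 with sample weights. With those weights 2109 genes of the whole table passed the adjusted threshold. The groups did not overlap for 6 genes (11.1%), beside 11.6% of all genes. They were Slit1, Ephb6, Nrp2, Ntn1 and Sema6b, which were higher in primed libraries (5, beside 6.31% of all genes), and Slit2, which was lower (1, beside 5.25%). Ephb6 stood at 10.39, 10.62 and 9.47 in naive, 10.11, 9.97 and 10.15 in non-primed, and 10.31, 10.16 and 10.36 in primed libraries, with a narrow gap between the injected groups. Sema6b, a membrane semaphorin, stood at 8.23, 8.21 and 7.90 in naive, 7.81, 8.05 and 8.06 in non-primed, and 8.09, 8.17 and 8.14 in primed libraries.

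The precision of this comparison differed widely between genes. The 95% interval of the difference had a half-width of 0.19 for the steadiest gene, 0.56 at the median and 1.46 for the most variable one. These half-widths were the same in all 3 comparisons, because the fit pools the spread of all 9 libraries for each gene. They therefore include the spread between naive libraries, which was the widest at the median (SD 0.47). With the injected groups fitted alone, the SE of this comparison was 0.08 in place of 0.25 for Ephb6, and 0.20 in either fit for Epha1. Robo1 differed by 0.0017 (95% interval -0.21 to 0.21), Ephb4 by 0.01 (-0.19 to 0.21) and Nrp1 by 0.01 (-0.22 to 0.24). Epha3 differed by -0.58, with an interval of -1.99 to 0.83 that allows a large change in either direction. Primed 1 stood apart from primed 2 and primed 3 in several receptors, among them Plxna4, at 7.66 against 8.98 and 8.98, and Epha4, at 8.89 against 10.04 and 10.09. Without primed 1, the difference of Epha3 was -0.10, that of Sema4f -0.0025 in place of -0.44, and the sign changed for 17 of the 54 genes (31.5%), beside 18.8% of all genes. Of the other genes with the smallest p-values here, Epha1 stood at 6.77, 6.79 and 7.02 in naive, 7.17, 7.19 and 6.79 in non-primed, and 6.42, 6.98 and 7.07 in primed libraries. Efna3 stood at 6.89, 6.0 and 6.69 in naive, 6.03, 6.0 and 6.31 in non-primed, and 6.14, 6.45 and 6.34 in primed libraries. Sema3d stood at 6.21, 7.23 and 8.49 in naive, 7.69, 8.28 and 8.12 in non-primed, and 7.11, 8.04 and 7.58 in primed libraries. The groups of all 3 overlapped.

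**Figure D5:**
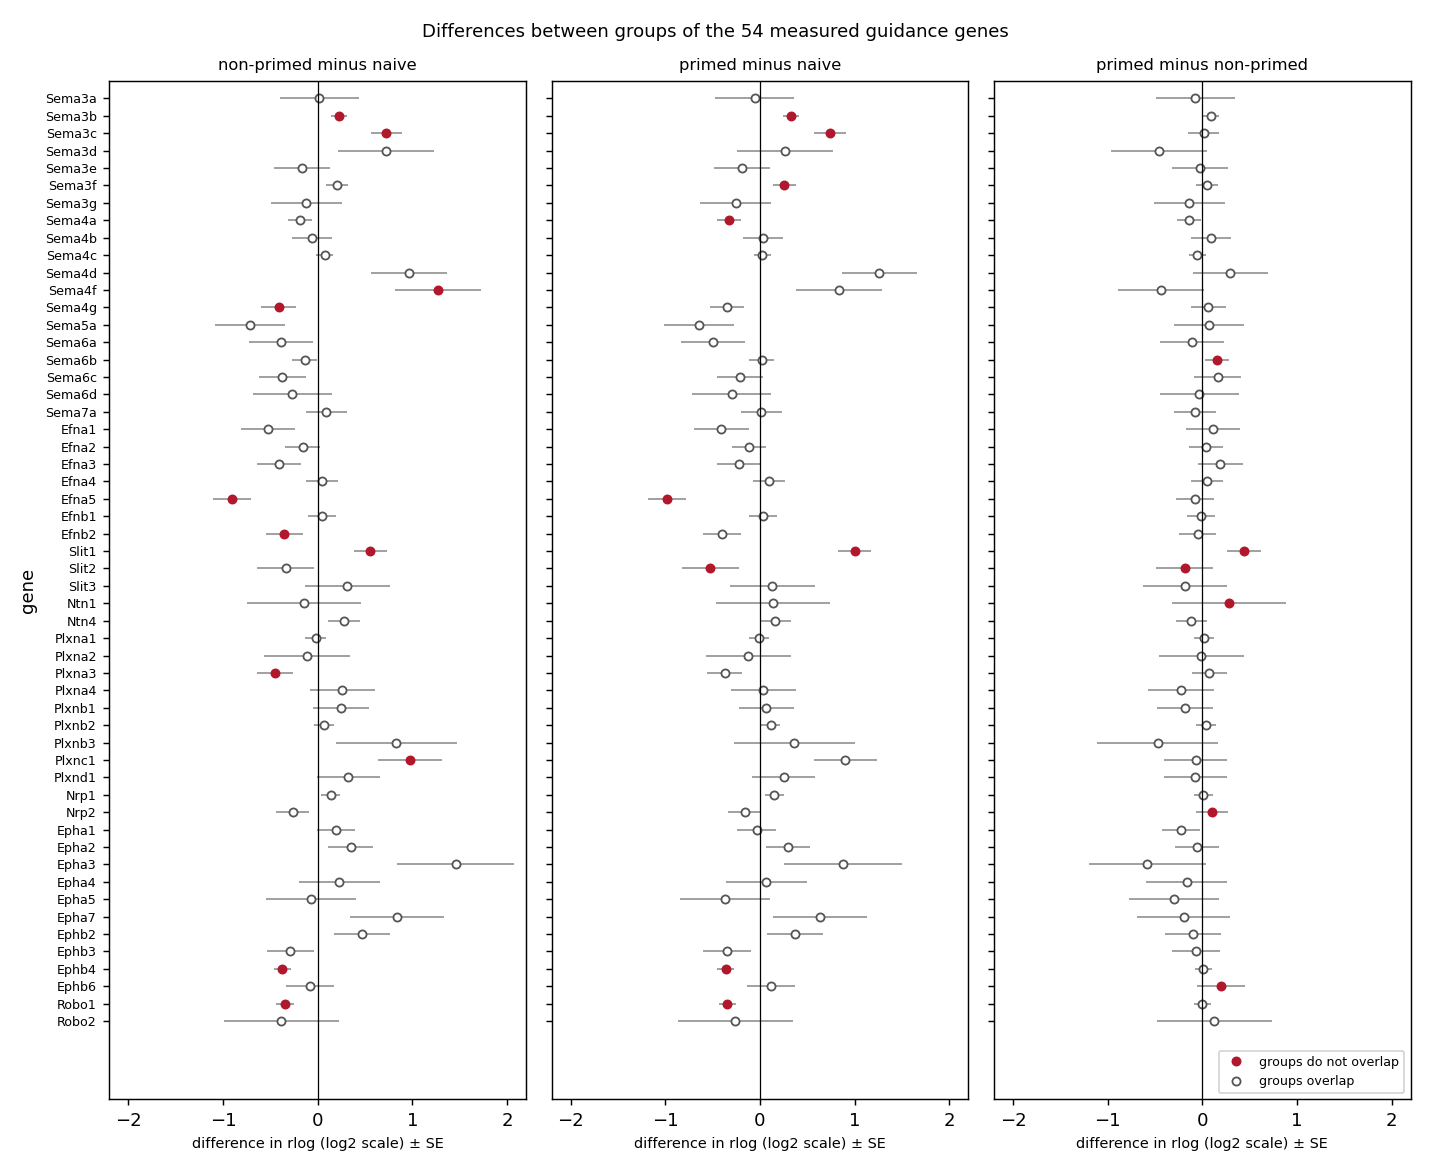
Difference in rlog (x axis, log2 scale) with its SE for the 54 measured genes (y axis) in the 3 comparisons, filled where the groups did not overlap and open where they did. Filled points number 11, 9 and 6 from left to right, and most differences between primed and non-primed cultures lie closer to 0 than those from naive cultures. The same held over all genes tested, with a median absolute difference of 0.087 between the injected groups and of 0.154 and 0.168 from naive. The naive group also had the widest spread between libraries.

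Genes that work with these ligands and receptors were taken from 6 lists of co-receptors, other ligands, intracellular mediators and matrix partners. Of 132 genes, 131 were matched and 120 measured, and 0 passed in any of the 3 comparisons. At an unadjusted p below 0.05 of limma, 13 were higher and 14 lower in non-primed against naive cultures (22.5% in all, beside 15.4% of all genes), 13 and 13 in primed against naive cultures (21.7%, beside 16.9%), and 0 in primed against non-primed cultures (beside 1.26%). Enah, an actin regulator that acts in netrin and Slit responses, came nearest to the threshold. It stood at 11.59, 11.57 and 11.53 in naive, 11.99, 11.93 and 11.98 in non-primed libraries, a difference of 0.40 (SE 0.07, adjusted p = 0.0583), and differed by 0.39 (SE 0.07, adjusted p = 0.0811) in primed cultures.

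The other leading genes of these lists lay on both sides of naive. Gipc1, which binds the tail of neuropilin-1, differed by 0.47 (SE 0.08, limma adjusted p = 0.0803) in non-primed and 0.40 (SE 0.08) in primed cultures, with naive libraries at 10.44 to 10.69 and non-primed ones at 10.98 or just above. Vegfa, the growth factor that shares neuropilins with the semaphorins, differed by 0.46 (SE 0.11) and 0.52 (SE 0.11, adjusted p = 0.09995). Unc5c, a netrin receptor, differed by -0.53 (SE 0.12) and -0.55 (SE 0.12, adjusted p = 0.105), opposite in sign to Gipc1 and Vegfa. Spon1, a matrix protein of the floor plate, had the largest difference, 2.70 (SE 0.62, adjusted p = 0.130) in non-primed and 2.16 (SE 0.62) in primed cultures, with naive libraries at 7.56 to 7.83 and non-primed ones at 10.13 to 10.70, while primed 1 was at 8.13 against 11.17 and 10.23. Havcr2, an immune receptor, differed by 1.64 (SE 0.39) and 1.56 (SE 0.39) beside the macrophage list given above. Lrrc4c differed by 1.28 (SE 0.29) and 1.15 (SE 0.29), Rgs3 by 0.92 (SE 0.27) and 0.88 (SE 0.27), and Kalrn by 0.74 (SE 0.24) and 0.85 (SE 0.24). On the lower side, Srgap3, which links Robo to Rac, differed by -0.43 (SE 0.11) and -0.40 (SE 0.11), and Sos1 by -0.50 (SE 0.10) in primed cultures. In the list of proteases and heparan sulfate enzymes, Hs6st1 differed by -0.39 (SE 0.12) in non-primed and Ndst1 by -0.41 (SE 0.13) in primed cultures.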

How the data were processed

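The deposited values are rlog values of the authors, on a log2 scale. The tools named in the submitters' processing notes are DESeq2, featureCounts, Subread 1.6.1, STAR 2.5.4a and cutadapt 2.5, on GRCm38. Libraries were made with a stranded kit, per the labels' protocols, but the sources used here do not give the strand setting of the counting, the annotation release or the rlog settings. Columns were matched to samples by their descriptions and groups taken from the titles. Gene symbols were looked up by identifier (47224 of 47729 matched), coordinates and union exon lengths from GENCODE M21 (GRCm38), and promoter windows from RefSeq (GRCm38.p6). Of 27757 genes that varied, the 15623 with a mean rlog of at least 3 were tested with limma 3.58.1 in R 4.3.3 (1 mean per group, all 9 libraries, variance trend, two-sided, Benjamini-Hochberg over all genes tested, threshold 0.05). An exact test of 3 libraries against 3 cannot go below 0.1, so groups that did not overlap were counted instead. With no counts, depth per library is unknown. The fit was tested on simulated data.

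The genes and lists were chosen with earlier results of these data known. Genes given by library are the 5 with the smallest p-values per comparison and direction, the highest per length of each family and all measured Slits, Robos, netrins and neuropilins, and others where the text says why. Plxnb3, Plxnb1, Plxna4, Sema3f, Ephb3, Epha4, Epha7, Plxna2 and the added Ntn1, Sema3a, Slit3 and Epha3 comparisons were chosen after their values were seen. Of the partner lists, a selection of the 3 genes with the smallest p-values is named. Exons of 11 measured genes overlap those of another annotated gene, among them Ephb4 with Zan and Plxnc1 with a predicted gene, so reads there may be lost or shared.

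Primed and non-primed libraries of the same number deviated together from their group means, with correlations across genes of 0.418, 0.608 and 0.1002, the last at the bound of 0.1 used to call them paired. Pairs of unlike number in these groups ran from -0.497 to 0.275, a range that holds the value of number 3. The submitters state that a number need not mark a mouse, and the replicate number entered an alternative fit only.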

Additional observations from a re-analysis of the deposited data

How the results depend on the processing

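Of the 54 measured genes, 0 passed in each of the 3 comparisons and in the test for any difference among the groups. That count stayed at 0 with no filter on low values, with a mean rlog of at least 5, with libraries centred to one median, with the 2 groups fitted alone (pairwise comparisons only), with no variance trend and with a robust prior. It was also 0 with the replicate number as a block, in each comparison. With sample weights, which ran from 0.133 for naive 3 to 10.41 for non-primed 1, 2 genes passed in non-primed against naive cultures (Efna5 and Epha3), 4 in primed against naive (Efna5, Epha3, Sema3c and Slit1), 5 in primed against non-primed (Ephb6, Ntn4, Sema4a, Sema6b and Slit1) and 7 for any difference. The whole table then had 621, 733, 2109 and 2485 genes past the threshold. With 1 library left out the counts ran from 0 to 3, from 0 to 2, from 0 to 0 and from 0 to 1. The counts above 0 came without naive 3 (3, 2 and 1, the last Ntn1) and without naive 2 (2, Slit1 and Sema4d, in primed against naive cultures). The whole table then had 266, 196 and 103 genes past the threshold without naive 3, and 356 without naive 2 in primed against naive cultures.

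At an unadjusted p below 0.05 the block left 0 genes in primed against non-primed cultures in place of 1 (Slit1), and 11 and 9 against naive, as without it. Among the differences recomputed gene by gene, signs changed for Epha3, Ntn1, Sema3a and Slit3. Those of Robo1, Ephb4 and Nrp1 between primed and non-primed cultures were not among them, and they lie so near 0 that their sign carries no information. With sample weights Epha3 was at 0.00029 in primed against non-primed, Ntn1 at 0.40 in non-primed against naive and Sema3a at 0.39 in primed against naive cultures. With 1 library left out, Ntn1 ran from -0.65 to 0.73 and from -0.37 to 1.01 in non-primed and primed against naive cultures, Sema3a from -0.31 to 0.62 and from -0.39 to 0.55, and Slit3 from -0.032 to 0.93 in non-primed against naive cultures. The cause was not tested. The depth of the libraries is unknown, so the precision is that of 3 libraries a group, and levels near the bound of 3, as in Slit1 and Sema4a, are the least certain.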
